A study of Mus musculus with 6 samples.

Results

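Complex I, or NADH:ubiquinone oxidoreductase, was followed through its subunit and assembly factor transcripts in haematopoietic stem cells (HSCs) of mouse fetal liver. Members were all genes of the deposited count table whose symbol begins with Nduf, except Ndufa4, which is a subunit of cytochrome oxidase. This rule gave 44 of 23951 genes. By symbol, 11 were core subunits (Ndufs and Ndufv), 26 were accessory subunits (Ndufa, Ndufb, Ndufc and Ndufab1) and 7 were assembly factors (Ndufaf). The study compared 3 libraries of cells with a knockout of Uqcrfs1 (KO) with 3 libraries of wild type cells (WT), all of strain C57BL/6. The deleted gene codes for RISP, the Rieske subunit with which respiratory complex III takes electrons from ubiquinol. The labels name neither the Cre or promoter behind the knockout, nor the gestational day, nor whether libraries came from separate embryos, so the spread behind each p-value is one between libraries and may be partly technical. Libraries were made from nanograms of total RNA with a strand-marking low-input kit and sequenced on a NextSeq500.

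Complex I takes electrons from NADH, hands them through a flavin and a chain of iron-sulfur clusters to ubiquinone, and pumps protons across the inner mitochondrial membrane. It is L-shaped: a peripheral arm in the matrix holds the NADH-oxidising N module and the ubiquinone-reducing Q module, and a membrane arm holds the proton pumps. The catalytic core of the peripheral arm is nuclear-encoded (Ndufv1, Ndufv2, Ndufs1, Ndufs3, Ndufs7 and Ndufs8 among others), and the core of the membrane arm is encoded by mitochondrial DNA. The remaining nuclear subunits are accessory, among them Ndufs4, Ndufs5, Ndufs6 and Ndufv3 despite their symbols. Ubiquinol made by complex I is oxidised by complex III, and both complexes join in supercomplexes. In structures of mammalian supercomplexes, NDUFA11 and NDUFB4 lie where complex I touches complex III. The mitochondrially encoded Nd genes were not analysed here.

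Uqcrfs1 had 4.33, 3.40 and 3.08 CPM (counts scaled to library size, with TMM factors) in the KO libraries, against 77.3, 123 and 61.0 CPM in the WT libraries. Every library thus matched its label. Total counts were 12020128 to 14590844 in KO and 10191354 to 13189329 in WT. All 12 stem and progenitor markers looked at were detected and tested, and 4 were called lower in KO, against 4.99% of all 12204 genes tested, among them Kit, the stem cell factor receptor (log2 fold change -0.38, SE 0.11, edgeR adjusted p = 0.0212). Kit was at 619, 580 and 529 CPM in KO and 837, 662 and 754 CPM in WT. The libraries also held RNA typical of other cells. Summed over 7 erythroid markers, the level was 35.7, 41.5 and 58.4 CPM in KO libraries, against 417, 214 and 186 CPM in WT libraries. The globin genes Hba-a1 and Hbb-b1 added nothing to this sum, being listed at 0 counts in all 6. Yet the deposited RPKM of Hbb-b1 was 48.5, 0.00094 and 234 in KO, against 373, 20.2 and 0.0012 in WT. The counts of Hbb-b1 therefore say nothing of its level. Summed over 7 macrophage markers, the level was 44.5, 26.6 and 40.6 CPM in KO, against 127, 63.1 and 607 CPM in WT. Summed over 4 endothelial markers it was 82.1, 71.5 and 66.6 CPM in KO, against 213, 112 and 710 CPM in WT. WT replicate 3 was thus highest for the last 2 lists. In the erythroid list Alas2, Klf1 and Slc4a1 were called lower, and Epor had a log2 fold change of 0.67 (edgeR adjusted p = 0.427). EdgeR called 0 macrophage and 0 endothelial markers, though 3 of each list were lower at an unadjusted p under 0.05, against 12.3% of all genes. DESeq2 called 2 macrophage and 3 endothelial markers lower, and limma, by voom or on RPKM, called 0 of each. Over all genes, edgeR called 609 lower, DESeq2 848, limma-voom 598 and limma on RPKM 50 to 185. Without WT replicate 3, edgeR called 1 macrophage and 2 endothelial markers lower, and 484 of all genes. Without WT replicate 2, it called 1 macrophage and 1 endothelial marker lower, and 546 of all genes. With a term for replicate number, it called 3 macrophage and 0 endothelial markers lower, and 579 of all genes. Of 5 granulocyte and mast cell markers, Prss34 was called higher in KO (log2 fold change 4.45, edgeR adjusted p = 0.00334) and Mpo lower (log2 fold change -0.62, edgeR adjusted p = 0.00325). The sum of that list was 187, 155 and 178 CPM in KO, against 227, 225 and 281 CPM in WT. Of 5 hepatoblast markers, Ttr was called lower, and their sum was 6.56, 9.59 and 34.6 CPM in KO, against 82.9, 19.8 and 26.5 CPM in WT. The part of these cells in the results on complex I was not tested. In such bulk samples, fewer cells of a type and less RNA per cell cannot be told apart.

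Few complex I transcripts differed between the groups beyond the spread between libraries. Of the 44 members, 42 passed the filter on low counts and were tested. None was called higher in KO and 3 were called lower: Ndufa11, Ndufa3 and Ndufb4, all accessory subunits of the membrane arm. Among all 12204 genes tested, 11.4% were called, 6.41% higher and 4.99% lower in KO (edgeR quasi-likelihood F test, Benjamini-Hochberg adjusted over all genes, threshold 0.05). The members' 3 of 42 lower calls therefore stand near the lower share of all genes. At an unadjusted p under 0.05, 9 of 42 members differed, against 25% of all genes. Of these, 2 were higher and 7 lower in KO, against 12.7% and 12.3% of all genes. DESeq2 and limma-voom also called 0 members higher and 3 lower.

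The direction of the fold changes differed by place in the complex. The median log2 fold change of KO over WT was -0.15 over the 42 members, 27 of which lay below 0, and -0.024 over all genes tested, 52% of which lay below 0. By symbol, the core class had a median of 0.058, with 2 of 10 below 0, and the accessory class one of -0.29, with 22 of 25 below 0. The membrane arm had a median of -0.30, with 17 of its 18 tested members below 0. The peripheral arm had a median of 0.032, with 6 of 16 below 0. The catalytic core had a median of 0.075, with 1 of 7 below 0, and the assembly factors one of 0.12, with 3 of 7 below 0. With each library left out in turn, the median stayed between -0.38 and -0.22 for the membrane arm, and between -0.091 and 0.098 for the peripheral arm. For the peripheral arm it was -0.091 without WT replicate 1, and also below 0 with KO replicate 1 left out (-0.021) or KO replicate 3 left out (-0.025). For the assembly factors it was below 0 without KO replicate 3 (-0.071) or WT replicate 1 (-0.024). For the core class by symbol it was below 0 without KO replicate 1 (-0.011) or WT replicate 1 (-0.028). Without WT replicate 2, the median of all 42 members was -0.068. These medians are descriptions, and no test compared the arms with each other.

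**Figure D1:**
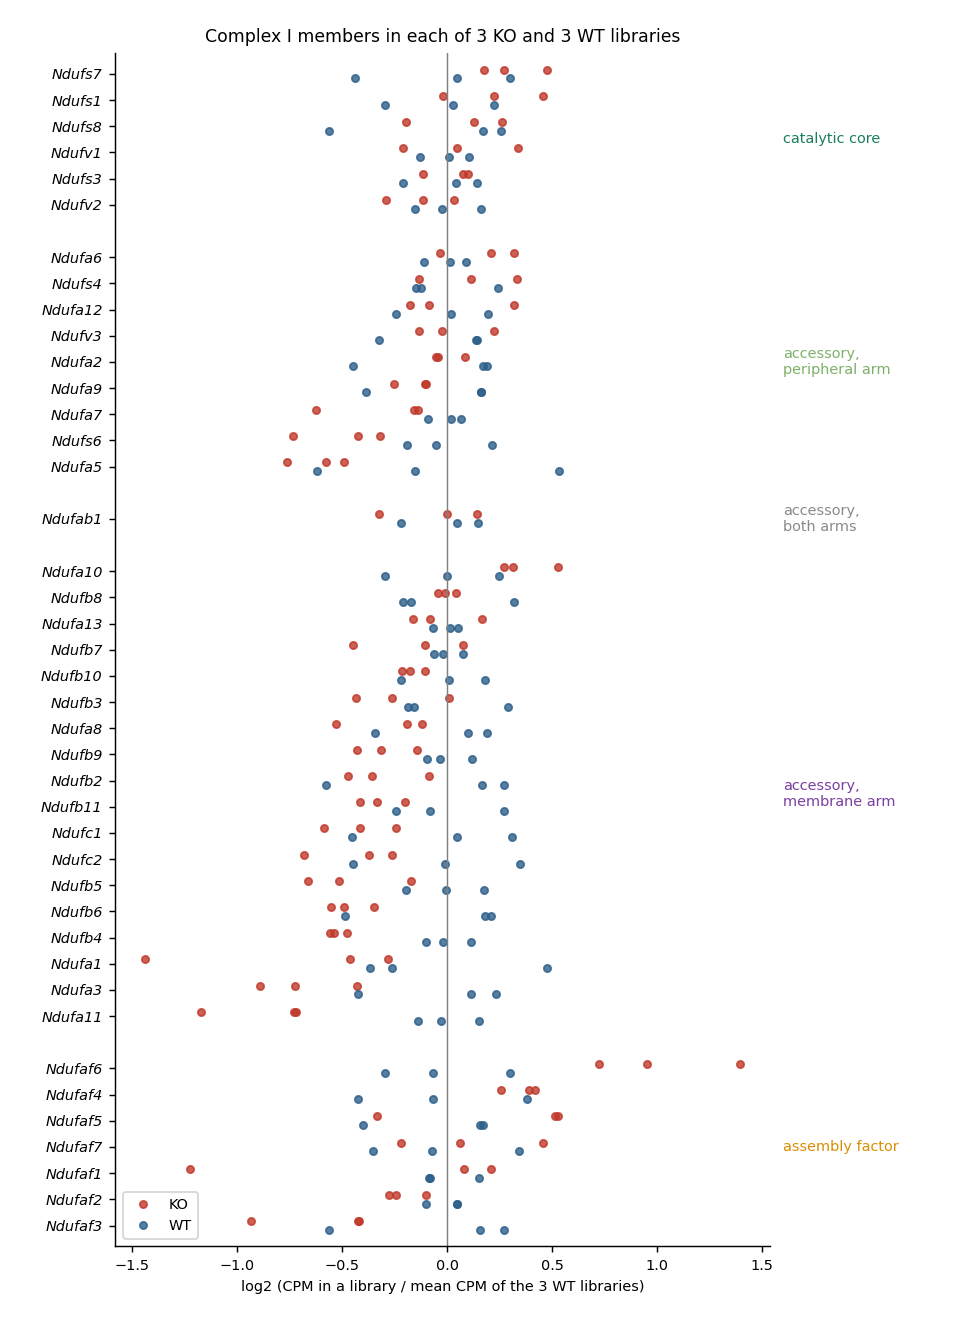
Level of 41 tested complex I members in each library, as log2 of CPM over the mean CPM of the 3 WT libraries (x axis), by gene and place in the complex (y axis). Each point is 1 library, KO (red) above WT (blue) in each row. KO points lie left of all WT points for Ndufa11, Ndufa3, Ndufb4, Ndufb9, Ndufs6 and Ndufa7, and right of all WT points for Ndufa10 and Ndufaf6.

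Ndufa11, whose protein anchors in the membrane arm, showed the greatest fall among the members. It was at 26.0, 19.1 and 26.2 CPM in KO libraries, against 39.2, 42.2 and 47.9 CPM in WT libraries. The groups did not overlap. Every KO library was below every WT library for 6 of 42 members and for 14.5% of all genes tested. Its mean was 23.8 ± 4.04 CPM in KO and 43.1 ± 4.42 CPM in WT (SD, n = 3 each), a log2 fold change of -0.86 with a standard error (SE) of 0.24 (edgeR adjusted p = 0.0230). The adjusted p was 0.122 without KO replicate 2, 0.0509 without KO replicate 3 and 0.0768 without WT replicate 3. Its exons share 70 bases with Vmac on the opposite strand, and RefSeq names a transcribed pseudogene, Ndufa11b. How strand and multiply mapped reads were handled is not stated, so its counts are uncertain to that extent. Other members have longer overlaps: Ndufb5 shares 616 bases with Mrpl47 on the opposite strand, and Ndufb9 shares 201 with Gm49356 on the same strand.

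Ndufa3, a small subunit at the foot of the membrane arm, was at 45.3, 50.9 and 62.2 CPM in KO libraries, against 62.4, 98.4 and 90.7 CPM in WT libraries. The groups were separate by a narrow margin, since the highest KO library lay just under WT replicate 1. The mean was 52.8 ± 8.63 CPM in KO and 83.9 ± 18.9 CPM in WT (SD, n = 3 each), with a log2 fold change of -0.67 (SE 0.20, edgeR adjusted p = 0.0302). The call was lost without KO replicate 1, KO replicate 2, WT replicate 2 or WT replicate 3, with adjusted p of 0.119, 0.117, 0.128 and 0.0856.

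Ndufb4, a subunit of the distal membrane arm, was the steadiest of the 3 between replicates. It was at 75.4, 78.8 and 74.3 CPM in KO libraries, against 118, 108 and 102 CPM in WT libraries. The KO libraries lay close together and well under the WT range. The log2 fold change was -0.52 (SE 0.15, edgeR adjusted p = 0.0261), or 30.4% less. With 1 library left out, the call held only without WT replicate 3, and the adjusted p was 0.0528 to 0.0929 without each of the other 5. RefSeq names the protein-coding copies Ndufb4b and Ndufb4c, neither of which was a row of the count table.

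The promoters of these 3 genes are shown because they hold the calls among the members. Each line gives bases upstream of the gene's start from RefSeq on GRCm38.p6, kept only where no annotated exon of any gene lies, 5′ to 3′ on the gene's strand. Capitals mark the match to the motif of NRF1 (GCGCA, any base, then GCGC), a regulator of nuclear genes for respiratory subunits.
Ndufa11, chr17:56717512-56717597, plus strand: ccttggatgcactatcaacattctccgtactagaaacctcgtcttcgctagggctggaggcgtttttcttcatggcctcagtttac
Ndufa3, chr7:3617123-3617346, plus strand: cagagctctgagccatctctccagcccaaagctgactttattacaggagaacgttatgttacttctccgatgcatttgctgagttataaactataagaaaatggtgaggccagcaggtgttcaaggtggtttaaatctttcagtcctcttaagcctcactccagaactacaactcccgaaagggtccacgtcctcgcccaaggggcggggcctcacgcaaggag
Ndufb4, chr16:37654454-37654618, minus strand: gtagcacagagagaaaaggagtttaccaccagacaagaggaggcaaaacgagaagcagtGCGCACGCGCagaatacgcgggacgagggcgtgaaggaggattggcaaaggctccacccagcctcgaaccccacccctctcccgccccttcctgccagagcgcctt

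The stretch of Ndufb4 holds 1 NRF1 match, and 2 more lie in its upstream bases that are not printed. The upstream match of Ndufa11 also lies in bases not printed, and Ndufa3 had none. The 250 bases upstream were searched on both strands. Of 38 members with a RefSeq promoter outside chromosome 18, 7 held this motif, or 18.4%, against 3.86% of 27025 promoters taken without that limit. Besides Ndufa11 and Ndufb4, the members with a match were Ndufa5, Ndufa8, Ndufaf4, Ndufs5 and Ndufs6. The ETS motif CCGGAAG was found in 4 of 38, or 10.5%, against 7.05% of all. The YY1 motif AAGATGG and the motif TGATGNAAN of the CEBP-ATF response element were in 0 of 38, against 4.53% and 3.51% of all. Each match is a description of letters and not of binding.

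The Ndufb genes, which build much of the distal membrane arm, all had fold changes below 0. Their 10 log2 fold changes ran between -0.52 for Ndufb4 and -0.0047 for Ndufb8, with a median of -0.29, and Ndufb4 was the one called. Ndufb5 had 51.4, 65.2 and 46.3 CPM in KO libraries, against 63.9, 82.9 and 73.2 CPM in WT libraries, and these groups overlapped. Its log2 fold change was -0.43 (SE 0.19, edgeR adjusted p = 0.148). Ndufb9 had 86.2, 70.7 and 76.7 CPM in KO libraries, against 89.3, 104 and 93.0 CPM in WT libraries, without overlap (edgeR adjusted p = 0.260). Summed over the 10 genes, the level was 567, 567 and 552 CPM in KO libraries, against 626, 732 and 688 CPM in WT libraries. Without WT replicate 2, the median of these genes was -0.18. With length and GC offsets it was also -0.18, with 8 of 10 below 0, and Ndufb4 was not called.

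Other subunits of the membrane arm mostly lay below 0 without passing the test. Ndufc1 and Ndufc2, subunits near the middle of the arm, had log2 fold changes of -0.41 (SE 0.22) and -0.43 (SE 0.20), with edgeR adjusted p of 0.266 and 0.176. Ndufa1, a small X-linked subunit needed for the membrane arm in hamster and human cells, was at 24.7, 12.6 and 28.1 CPM in KO libraries, against 26.5, 28.4 and 47.3 CPM in WT libraries (log2 fold change -0.65, SE 0.31, edgeR adjusted p = 0.206). Its lowest library, KO replicate 2, was also the only one with 0 counts of Xist, which had 5842 to 16004 counts in the other 5. Ndufb11, the other X-linked member, had its lowest KO value in KO replicate 1. Ndufa8 and Ndufa13 had log2 fold changes of -0.27 (SE 0.25) and -0.020 (SE 0.16).

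Ndufa10 was the single tested member of the membrane arm with a fold change above 0. It had 118, 99.2 and 102 CPM in KO libraries, against 97.6, 82.1 and 66.9 CPM in WT libraries. The KO libraries were above all WT libraries, as for 15.7% of all genes tested, though the lowest KO and the highest WT library nearly met. Its log2 fold change was 0.38 (SE 0.16, edgeR adjusted p = 0.153). Summed over the membrane arm, the level was 986, 966 and 996 CPM in KO libraries, against 1072, 1270 and 1208 CPM in WT libraries, a mean 16.9% lower in KO. The KO sums varied less among themselves than the WT sums did.

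**Figure D2:**
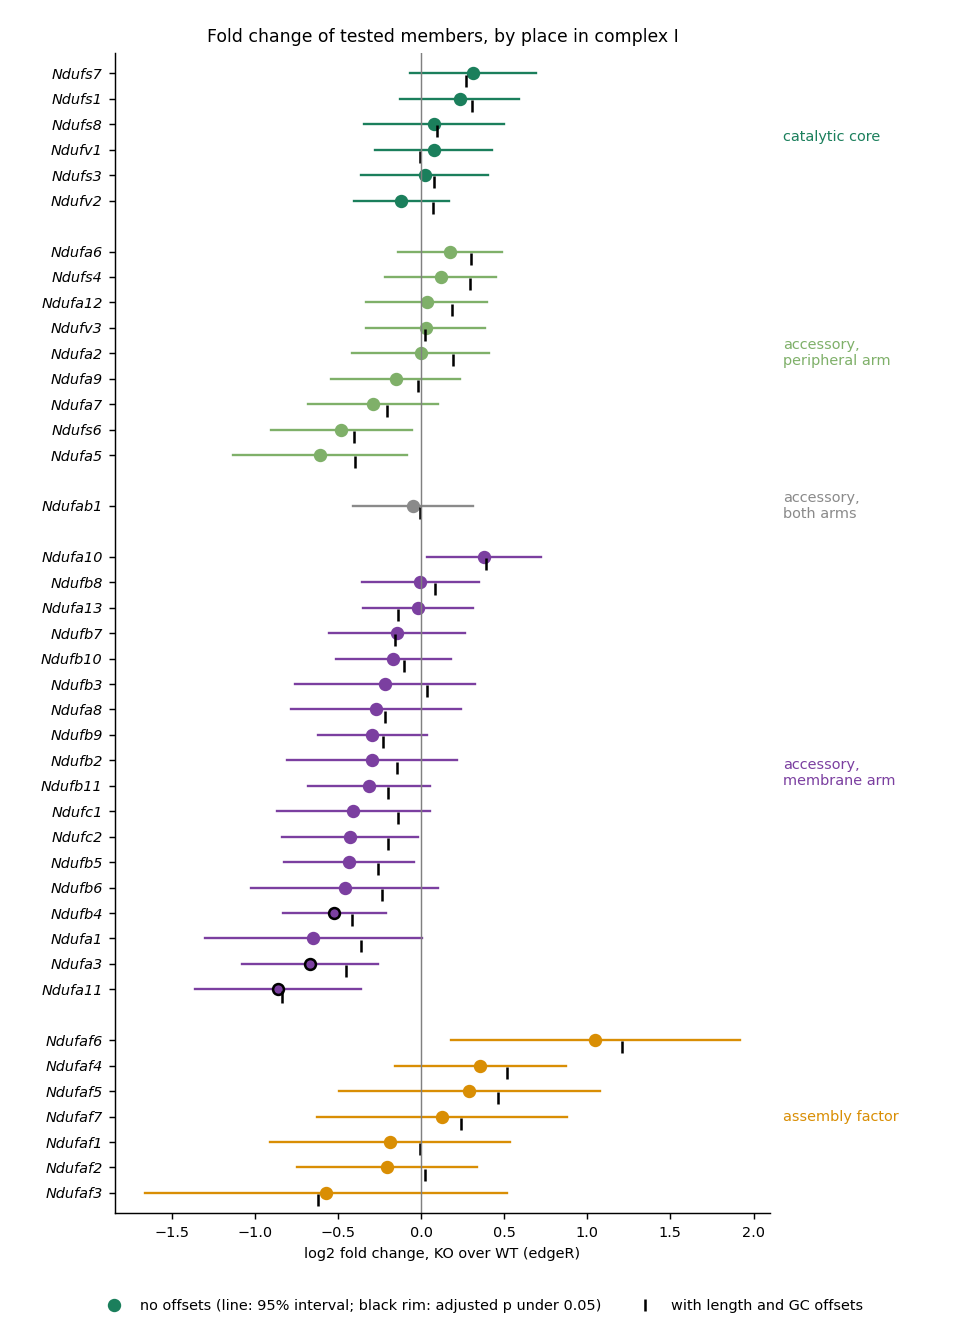
Log2 fold change of KO over WT for 41 tested members (x axis) by gene and place in the complex (y axis), with 95% intervals as lines. Black rims mark the 3 calls, and black ticks give the value after offsets for transcript length and GC content. In the membrane arm, 17 of 18 points lie left of 0, and 15 of 18 do so with offsets.

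No gene of the catalytic core passed the test. In the N module, Ndufv1, which binds NADH and the flavin, was at 71.5, 85.1 and 104 CPM in KO libraries, against 75.6, 83.1 and 88.8 CPM in WT libraries. Ndufv2, its iron-sulfur partner, had the highest mean RPKM of the core class, and was at 148, 118 and 134 CPM in KO, against 142, 162 and 130 CPM in WT. Both groups overlapped, with log2 fold changes of 0.075 (95% interval -0.28 to 0.43) for Ndufv1 and -0.12 (95% interval -0.40 to 0.17) for Ndufv2. Ndufs1, the largest subunit with several iron-sulfur clusters, was at 112, 95.7 and 80.9 CPM in KO, against 83.6, 66.8 and 95.7 CPM in WT (log2 fold change 0.23, SE 0.17, edgeR adjusted p = 0.446).

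In the Q module, Ndufs7, which carries the last cluster before ubiquinone, was at 93.2, 107 and 87.2 CPM in KO libraries, against 56.9, 79.7 and 94.8 CPM in WT libraries. WT replicate 3 lay among the KO libraries, and the log2 fold change was 0.31 (SE 0.18, edgeR adjusted p = 0.302). For Ndufs3 and Ndufs8, the other Q module core genes described here, it was 0.022 (95% interval -0.36 to 0.40) and 0.077 (95% interval -0.34 to 0.50). None of the 7 core genes had an unadjusted p under 0.05, and none was called by edgeR, DESeq2, limma-voom or limma on RPKM. The lower ends of their 95% intervals ran from -0.40 for Ndufv2 to -0.064 for Ndufs7, and the upper end reached 0.69 for Ndufs7 and 0.59 for Ndufs1. The 95% interval of Ndufb4, from -0.83 to -0.21, overlapped that of Ndufv2, and no test compared Ndufb4 with the core. Without KO replicate 1 the median of the 7 was -0.017, and without KO replicate 3 it was 0.20.

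Accessory subunits of the peripheral arm differed among themselves. Ndufs6, which with Ndufa12 completes the N module and binds zinc, was at 42.6, 45.8 and 34.3 CPM in KO libraries, against 55.0, 50.1 and 66.2 CPM in WT libraries. The groups did not overlap, and the log2 fold change was -0.48 (SE 0.20, edgeR adjusted p = 0.139). Ndufa7 also had every KO library below every WT library, with 41.9, 57.9 and 58.6 CPM in KO, against 67.6, 65.4 and 60.7 CPM in WT (log2 fold change -0.29, SE 0.19, edgeR adjusted p = 0.368). Ndufa5, a Q module subunit, was at 31.4, 35.7 and 37.9 CPM in KO libraries, against 34.7, 47.9 and 77.1 CPM in WT libraries. Its WT libraries were widely spread, and the log2 fold change was -0.61 (SE 0.25, edgeR adjusted p = 0.128). It was called lower only without WT replicate 1 (log2 fold change -0.84, edgeR adjusted p = 0.0374).

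The other accessory subunits of this arm overlapped between the groups. Ndufs4, an N module subunit whose loss causes a Leigh-like disease in mice, had a log2 fold change of 0.12 (95% interval -0.22 to 0.45). Ndufa6, a subunit of the LYR family, was at 122, 95.3 and 113 CPM in KO, against 98.2, 104 and 90.3 CPM in WT (log2 fold change 0.17, SE 0.15). Ndufa2, Ndufa12 and Ndufv3 had log2 fold changes of -0.0026, 0.034 and 0.029, and Ndufa9 had -0.15 (SE 0.19). Ndufab1, the acyl carrier protein that sits in both arms, was at 64.6, 89.1 and 80.7 CPM in KO, against 69.4, 83.5 and 89.6 CPM in WT. Summed over the peripheral arm, the level was 1438, 1333 and 1282 CPM in KO libraries, against 1190, 1377 and 1464 CPM in WT libraries, so the groups overlapped.

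**Figure D3:**
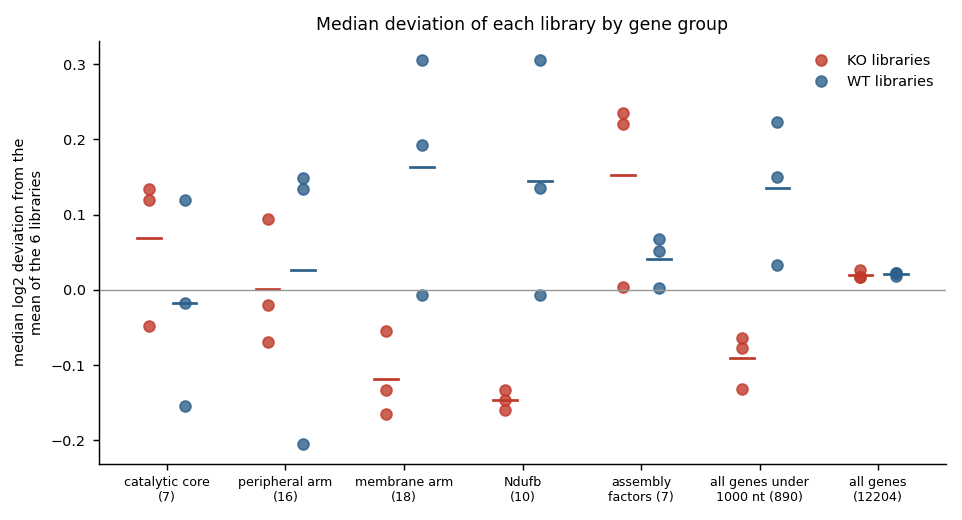
Median log2 deviation of each library from the mean of the 6 libraries (y axis) over the tested genes of each group (x axis, number of genes in brackets). Points are libraries, KO left of WT, and short lines are group means. For the membrane arm the KO medians were -0.17, -0.13 and -0.055, against -0.0069, 0.31 and 0.19 in WT. For the group of all genes with transcripts under 1000 nt, the KO medians also lay below the WT medians.

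Of the 7 assembly factors, which build the complex and leave it, none was called. Their median log2 fold change of 0.12 became 0.24 with length and GC offsets, with 2 of 7 below 0. Ndufaf6, known in human cells for an early step with the mitochondrially encoded ND1, was at 14.5, 19.7 and 12.4 CPM in KO libraries, against 6.11, 9.22 and 7.17 CPM in WT libraries. Every KO library lay above every WT library. The fold change was 2.07 in favour of KO, or 1.05 on the log2 scale (SE 0.42), and the edgeR adjusted p was 0.113. On the deposited RPKM, limma called it higher in KO, with adjusted p of 0.0423 at a pseudocount of 1 and 0.0411 at 0.1, where 2.55% and 2.54% of 12464 genes were called higher. The same fits called 0 members lower, against 1.48% and 1.41% of all genes, with adjusted p of 0.0565 and 0.0560 for Ndufa11. Without a filter on RPKM, the adjusted p of Ndufaf6 was 0.0839 and the call was lost. Without KO replicate 2 the edgeR adjusted p was 0.386.

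Ndufaf4, which works with Ndufaf3 on the Q module in human cells, was at 35.8, 40.1 and 39.2 CPM in KO libraries, against 28.6, 22.3 and 38.9 CPM in WT libraries. WT replicate 3 lay within the KO range (log2 fold change 0.36, SE 0.25, edgeR adjusted p = 0.407). Ndufaf3 was at 4.76, 6.79 and 6.78 CPM in KO, against 10.1, 11.0 and 6.17 CPM in WT, with a log2 fold change of -0.57 (SE 0.52). Ndufaf2, a paralogue of Ndufa12 that is replaced by it late in assembly in human cells, was at 25.4, 23.0 and 22.5 CPM in KO, against 28.2, 28.1 and 25.4 CPM in WT (log2 fold change -0.20, SE 0.26). Ndufaf5, which hydroxylates human NDUFS7, was at 18.7, 18.9 and 10.4 CPM in KO, against 14.6, 14.8 and 9.95 CPM in WT (log2 fold change 0.29, SE 0.38). Ndufaf1, of the MCIA assembly complex, and Ndufaf7, a mitochondrial arginine methyltransferase, had log2 fold changes of -0.18 (SE 0.35) and 0.12 (SE 0.36). The SE of these lowly expressed genes was about the size of their fold changes or larger, except for Ndufaf6 and Ndufaf4.

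Genes with other names that assemble or import parts of complex I were read from a list of 17 in the table. None was called by edgeR, against 11.4% of all genes tested. At an unadjusted p under 0.05 there was 1, Sfxn4, against 25% of all genes. Sfxn4, a mitochondrial sideroflexin, was at 2.52, 3.33 and 6.39 CPM in KO libraries, against 0.301, 0.0931 and 0.771 CPM in WT libraries. These counts were low but the groups were well apart (log2 fold change 3.34, SE 1.21, edgeR adjusted p = 0.0808). DESeq2 called Sfxn4 higher in KO (adjusted p = 0.0127), where it called 942 of all genes higher. Nubpl, which delivers iron-sulfur clusters to complex I, was at 5.12, 1.46 and 4.10 CPM in KO, against 5.01, 12.9 and 8.79 CPM in WT (edgeR adjusted p = 0.206). Chchd4, a carrier of the import relay of the intermembrane space, was at 29.6, 26.6 and 39.7 CPM in KO, against 18.3, 25.9 and 23.0 CPM in WT (edgeR adjusted p = 0.250). The row 1810043H04Rik, now named Ndufaf8 in RefSeq, was at 12.3, 14.7 and 10.8 CPM in KO, against 19.0, 18.0 and 15.7 CPM in WT (edgeR adjusted p = 0.437).

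The other respiratory complexes were read from lists of their subunits. Complex I had 3 of 42 tested members lower in KO. Complex II had 0 of 4, with Sdhd lower by limma-voom. Complex II also had 1 lower without the low-count filter, with a term for replicate number and without KO replicate 1. In that order, 841, 579 and 497 of all genes were lower in these fits. Complex III without Uqcrfs1 had 2 of 8, namely Uqcrh and Uqcr10. Complex IV had 1 of 15, Cox5a, and DESeq2 called 4 lower, where it called 848 of all genes lower. Complex V had 2 of 16, Atp5j and Usmg5. The median log2 fold change was -0.17 for complex II, -0.29 for complex III without Uqcrfs1, -0.29 for complex IV and -0.27 for complex V. In that order, 3 of 4, 7 of 8, 12 of 15 and 15 of 16 lay below 0, against 52% of all genes. At an unadjusted p under 0.05, 1, 4, 7 and 8 of them were lower in KO, against 12.3% of all genes. At the same level 0, 1, 2 and 0 were higher, against 12.7% of all genes. For complex I, 7 of 42 were lower and 2 of 42 higher. No member of these 4 lists was called higher by the edgeR test above, where 4.99% of all genes were called lower. Without the low-count filter complex IV had 1 higher and 3 lower, where 937 of all genes were higher and 841 lower. With length and GC offsets, complexes II, III and IV had 0 lower and complex V had 1, where 4.35% of all genes were lower. The counts also moved with single libraries. Complexes III, IV and V each had 0 lower without KO replicate 2 or WT replicate 3, where 264 and 484 of all genes were lower. Complexes IV and V had 4 lower each without WT replicate 1, where 383 of all genes were lower. Without WT replicate 2 complex IV had 2 higher, where 717 of all genes were higher.

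The order of members by level depends on the length used, so members are ranked against each other only per length. By the deposited RPKM, averaged over the 6 libraries, Ndufa3 was first with 412 RPKM and Ndufb4 second with 305 RPKM, and Ndufa11 had rank 40 with 8.81 RPKM. By CPM per kilobase of transcript, Ndufa6 was first with 176, Ndufa3 the third with 133 and Ndufa11 at rank 24 with 61.3. The lengths that counts and RPKM imply together were 3702 nt for Ndufa11 and 166 nt for Ndufa3, against transcripts of 545 and 515 nt. Among tested members the lowest in RPKM was Ndufaf5 with 6.30, and Ndufs1 was lowest of the core class with 41.0. On both scales all 7 assembly factors stood in rank 32 or below, and by CPM per kilobase all of them stood in rank 33 or below.

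Both members that were not tested had few or no counts. Ndufs5, an accessory subunit on the intermembrane side of the membrane arm, was listed at 0 counts in all 6 libraries, yet its deposited RPKM was 23.6, 30.0 and 32.9 in KO libraries, against 16.4, 49.7 and 29.7 in WT libraries. The counts of this gene therefore say nothing of its level, and its RPKM overlapped between the groups. RefSeq names a transcribed pseudogene, Ndufs5-ps. Ndufa4l2, a paralogue of Ndufa4 known as a HIF target rather than a part of complex I, had 5, 0 and 0 counts in KO libraries, against 24, 21 and 0 counts in WT libraries.

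The fold changes of all genes varied with transcript length. Complex I transcripts are short: the 42 tested members had a median length of 895 nt, and 27 of them fell in the shortest decile of all genes with a known length. In that decile the median log2 fold change over all genes was -0.22, with 1.81% called higher and 7.50% called lower in KO. In the longest decile the median was 0.11, with 17.6% called higher and 3.63% called lower. Each library's log2 level was taken as its deviation from the gene's mean over all libraries, so slopes on length are relative between libraries. Per doubling of length the slope was 0.039, 0.046 and 0.034 in KO libraries, against -0.014, -0.091 and -0.015 in WT libraries. All KO slopes were above all WT slopes. The sign of a slope has no meaning for a library by itself. How far length contributed was not tested beyond the offsets that follow.

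**Figure D4:**
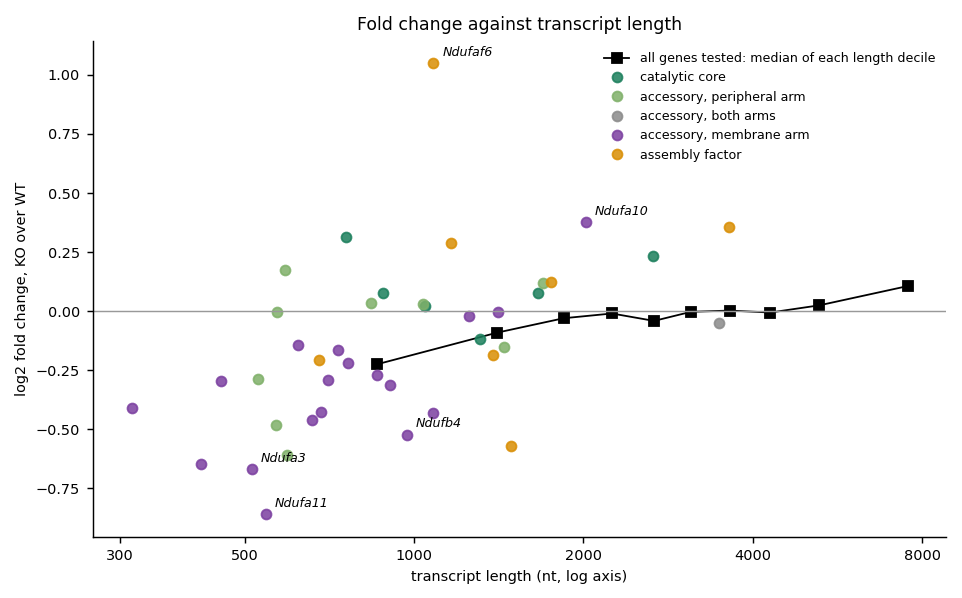
Log2 fold change of KO over WT (y axis) against transcript length in nt (log x axis). Coloured points are 41 tested members by place in the complex, and black squares are the medians of all genes in each decile of length. The squares lie at -0.22 in the shortest decile and 0.11 in the longest, and most membrane arm members are at the short end.

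When a smooth term for length and GC content was fitted in each library and entered as offsets, the median of the 42 members was -0.0058, with 23 below 0, while 51.9% of all genes lay below 0. Ndufa11 remained called (log2 fold change -0.84, edgeR adjusted p = 0.0271). Ndufa3 and Ndufb4 did not pass, with log2 fold changes of -0.45 and -0.42 and edgeR adjusted p of 0.124 and 0.0842. With these offsets 5.48% of genes were called higher and 4.35% lower. The membrane arm then had a median of -0.20, with 15 of 18 below 0, against 0.076 for the peripheral arm. Among transcripts under 1000 nt without offsets, the median was -0.36 for 14 members of the membrane arm, 0.016 for 8 of the peripheral arm and -0.25 for all 890 genes. With offsets these 3 medians were -0.21, 0.14 and -0.12, and 538 of the 890 genes lay below 0. The offsets thus left part of the shift of short genes in place. From 1000 nt on, the median without offsets was -0.012 for 4 members of the membrane arm and 0.035 for 8 of the peripheral arm.

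Single libraries weighed on these values. WT replicate 1 was the lowest WT library in 27 of the 42 members and the lowest of all 6 in 13. WT replicate 2 was the highest of all 6 in 13 members. Summed over all members, the level was 2610, 2535 and 2495 CPM in KO libraries, against 2453, 2852 and 2892 CPM in WT libraries, so WT replicate 1 lay below the KO range. Reads of Rn45s, ribosomal RNA, made up 9.92%, 6.70% and 4.96% of counts in KO libraries, against 11.7%, 10.5% and 11.3% in WT libraries, and leaving that row out with Lars2 left the 3 calls in place.

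**Figure D5:**
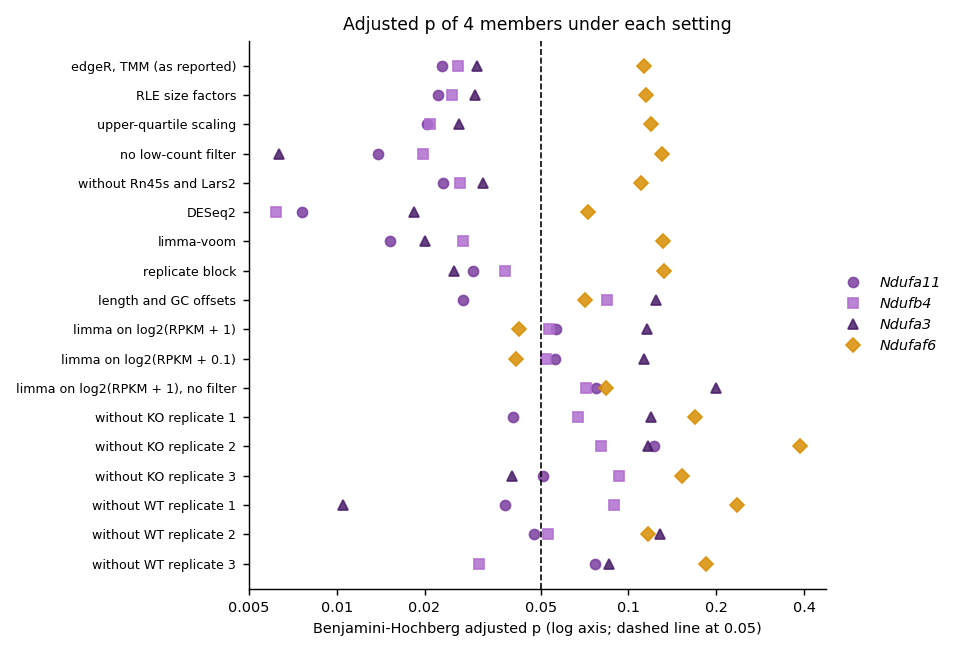
Benjamini-Hochberg adjusted p (log x axis, dashed line at 0.05) of Ndufa11, Ndufb4, Ndufa3 and Ndufaf6 under each setting (y axis). The 3 membrane arm genes lie under 0.05 in the count-based fits to all 6 libraries without offsets, and none of them does without KO replicate 2 or with limma on RPKM.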

How the data were processed

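Read counts per gene symbol and RPKM values were deposited by the authors, with 1 column per library. Per the submitters' processing notes, TopHat and Cufflinks were used on mm9. Versions, read counter, annotation and strand setting: not given in the sources used here. The deposited counts were whole numbers without normalization, and 180 genes with 0 counts had a mean deposited RPKM of at least 0.5. Counts were tested with edgeR 4.0.16 in R 4.3.3 (TMM, filterByExpr, robust quasi-likelihood fit of 1 group term, F test), with adjustment over 12204 genes. The SE is the size of the log2 fold change over the square root of F. Pipelines were tested on simulated data. Alternatives used DESeq2 1.42.0 and limma 3.58.1, which was also run on log2(RPKM + 1) and log2(RPKM + 0.1). Fits on RPKM kept genes with a mean of at least 0.5 or all genes, and such fold changes understate those of low genes. Transcript lengths and GC content came from GENCODE vM21 transcripts, and promoters and copies from RefSeq. Total counts of 10191354 to 14590844 per library limit the precision of low genes, and replicate pairs differed by more than counting noise (chi-square 22.4 to 45.4 per degree of freedom). The values of 1 tested member are not reported here singly, though it is in the counts and medians. Members and lists were chosen with earlier results of these data known. Other members may be named, with full values for those called, those with the smallest p, the highest and lowest RPKM of each class, and those not tested.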

Additional observations from a re-analysis of the deposited data

How the results depend on the processing

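Of 17 alternatives, RLE and upper-quartile scaling, no low-count filter, DESeq2, limma-voom, the replicate block and leaving out Rn45s and Lars2 gave the same 3 lower and 0 higher members, and the paired fit with the replicate block had 762 genes higher and 579 lower. KO and WT libraries of the same replicate number varied together little (correlations of 0.0305, 0.0133 and 0.0027). KO replicates 1 and 2 correlated best with the WT library of their own number, and KO replicate 3 did not. With so few libraries this cannot decide whether the numbers mark pairs, and the labels do not say. With length and GC offsets 1 member was lower, and the median of the members was -0.0058. Limma on log2(RPKM + 1) and on log2(RPKM + 0.1) called 1 member higher and 0 lower, with 318 and 316 genes higher and 185 and 176 lower. Without a filter on RPKM it called 0 members in either direction, with 116 genes higher and 50 lower. With 1 library left out, 0 to 3 members and 264 to 546 genes were lower, 448 to 717 genes were higher and the median of the members was -0.18 to -0.068. The cause was not tested.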
